A study of Mus musculus with 12 samples.

Results

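A set of 7 genes of the Hedgehog pathway were followed through 12 mouse tissue samples. They are the receptor gene *Ptch1*, the antagonist *Hhip*, the co-receptor genes *Gas1* and *Lrp2*, the signal transducer *Smo* and the transcription factor genes *Gli1* and *Gli3*. They were chosen by gene symbol and make up 7 of the 770 genes of the nCounter Mouse PanCancer Pathways panel, on which color-coded probes count RNA molecules without amplification. The samples were 5 ocular *RBS* lesions, 4 control eyes and 3 medulloblastomas (Shh-MBs), each from 1 animal.

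*RBS* lesions were eyes of Rax-creERT2::Ctnnb1(ex3)Fl/+SmoM2Fl/+ embryos collected at E18.5 after tamoxifen on E8.5. In these embryos Cre works from the *Rax* promoter, which is active in retinal precursor cells. Recombination removes exon 3 of *Ctnnb1*, which stabilizes beta-catenin, and switches on SmoM2, a constitutively active form of Smo. Control eyes came from E18.5 embryos with the genotype Ctnnb1(ex3)Fl/+SmoM2Fl/+, so both floxed alleles were present in controls and lesions and the Cre driver was absent from controls. Tamoxifen exposure of these control eyes is not stated in the sources used here, although controls of this genotype were littermates of injected embryos in the protein experiment of the study. Shh-MBs were cerebellar tumors of hGFAP-cre::SmoM2Fl/+ mice at 14 days of age, in which the human GFAP promoter drives Cre and the genotype lists no *Ctnnb1* allele. Tissue, age and genotype differ together between Shh-MBs and eyes, and their parts cannot be told apart. All samples were whole tissue, in which fewer cells of a type and less RNA per cell cannot be told apart.

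In Hedgehog signaling, Ptch1 holds Smo inactive until a secreted Hedgehog ligand binds Ptch1. Gas1 is a membrane-anchored protein that helps the ligand bind, Lrp2 (megalin) is a large endocytic receptor that can bind Shh, and Hhip captures ligand at the cell surface. Active Smo, including SmoM2, acts downstream of Ptch1 and turns the Gli proteins from repressors into activators. *Gli1*, *Ptch1* and *Hhip* are themselves classical targets of the pathway, so their RNA is widely read as its output, while Gli3 acts largely as a repressor when the pathway is silent. In the eye, Shh is produced by retinal ganglion cells and guides the division of retinal progenitors. In the cerebellum it comes from Purkinje cells and drives the division of granule cell progenitors, the cells from which Shh-MBs arise.

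The unit of all levels is a normalized, linear signal, from which a background level had been subtracted before each sample was multiplied by 1 factor. Between 335348 and 716959 counts above background stood behind a sample. A single count was worth 0.810 to 1.64 units of signal, so that a signal of a few units rests on few counts. The 3 most abundant genes of the panel made up 26.9% to 29.7% of an *RBS* lesion's signal, 42.8% to 50.9% of a control eye's and 50.0% to 51.8% of a Shh-MB's. Of the neural retina markers (8) and lens markers (3) listed for checking the tissue label, 0 were on the panel, and the eye label could not be checked with them. The only granule cell progenitor marker on the panel, *Zic2*, was 924 to 1142 in Shh-MBs and 223 to 385 in the eyes. Differences were tested with limma on log2 of signal plus 1 over all 770 genes, with Benjamini-Hochberg adjustment and a threshold of 0.05. The 3 comparisons share samples and are not independent of each other. The sources say that each sample is a separate animal, so the errors are between animals.

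Between *RBS* lesions and control eyes, 2 of the 7 genes were higher in *RBS* lesions (*Lrp2* and *Ptch1*), 3 were lower (*Gli3*, *Gas1* and *Gli1*) and 2 did not pass (*Hhip* and *Smo*). Over all genes of the panel, 51.2% were called in this comparison, 33.0% as higher and 18.2% as lower. Between Shh-MBs and control eyes, 2 were higher in Shh-MBs (*Ptch1* and *Gli1*), 3 were lower (*Gli3*, *Lrp2* and *Gas1*) and 2 did not pass (*Hhip* and *Smo*), where 41.0% of all genes were called, 9.61% as higher and 31.4% as lower. Between *RBS* lesions and Shh-MBs, 2 were higher in *RBS* lesions (*Lrp2* and *Gli3*), 1 was lower (*Gli1*) and 4 did not pass, beside 60.8% of all genes called, 48.1% as higher and 12.7% as lower. All values of one group lay on one side of the other in 5, 5 and 3 of the 7 genes, in the same order of comparisons, and in 43.4%, 48.2% and 59.9% of all genes. Beside these background shares, counts over 7 genes are not read as a result about them as a group. The median log2 difference of the 7 genes was 0.18, 0.0015 and 0.17, and that of all genes was 0.17, -0.22 and 0.53.

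**Figure D1:**
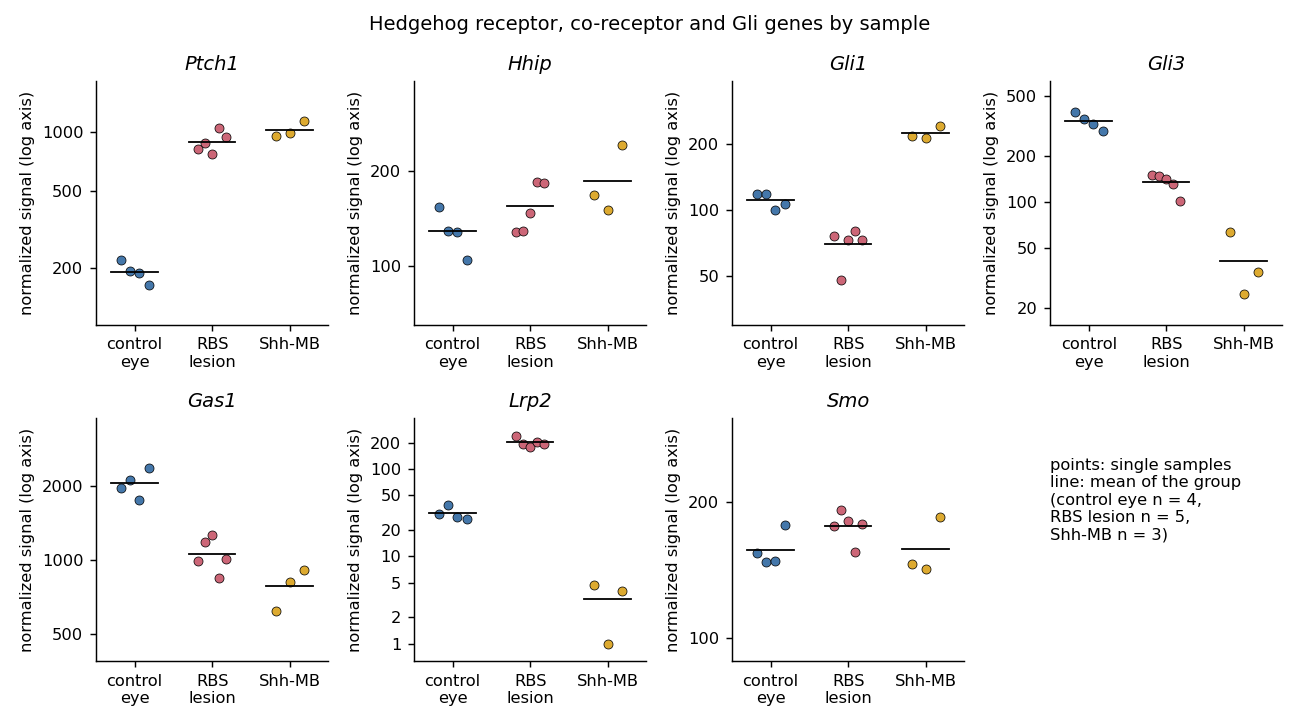
Normalized signal (log axis) of each of the 7 genes in 4 control eyes, 5 *RBS* lesions and 3 Shh-MBs, with 1 point for each sample and a line at the group mean. *Ptch1* is high in both lesion types, *Lrp2* in *RBS* lesions only among these groups, *Gli1* is lowest in *RBS* lesions and highest in Shh-MBs, and *Smo* and *Hhip* overlap between all groups.

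*Ptch1* RNA was several-fold above control eyes in both lesion types. In control eyes its signal was 219.9, 194, 189 and 165 (192 ± 22.7, SD, n = 4). In *RBS* lesions it was 821, 883, 773, 1043 and 943 (893 ± 106, SD, n = 5), and in Shh-MBs 959, 984 and 1139.8 (1028 ± 98.0, SD, n = 3). The lowest *RBS* lesion stood far above the highest control eye, and the ranges of *RBS* lesions and Shh-MBs overlapped. The log2 difference to control eyes was 2.21 in *RBS* lesions (standard error 0.12, adjusted p = 3.12e-06, limma), a 4.63-fold higher level, and 2.42 in Shh-MBs (standard error 0.131, adjusted p = 1.99e-05), a 5.34-fold higher level (3.08 on the log2 scale with median centring). Of the 770 genes, *Ptch1* had the 19th largest log2 rise in *RBS* lesions and the 9th largest in Shh-MBs. *RBS* lesions and Shh-MBs differed by -0.21 (95% interval -0.50 to 0.089, adjusted p = 0.195), which did not pass. Under 4 other scalings of the samples this difference was -0.48 to -1.05 and passed in each, so whether *Ptch1* was lower in *RBS* lesions than in Shh-MBs depends on the scaling.

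*Hhip*, a target of the same pathway, did not show the rise of *Ptch1*. Its signal was 154, 129, 128 and 104 in control eyes (129 ± 20.4, SD, n = 4) and 128, 129, 148, 184 and 183 in *RBS* lesions (155 ± 27.9, SD, n = 5). In Shh-MBs it was 168, 150.4 and 241 (186 ± 47.8, SD, n = 3). *RBS* 1, 2 and 3 lay within the range of control eyes and *RBS* 4 and 5 above it, and only Shh-MB 3 exceeded all eyes. The log2 difference between *RBS* lesions and control eyes was 0.26 (95% interval -0.11 to 0.62, adjusted p = 0.222), and the interval allows at most a small part of the rise seen for *Ptch1*. Between Shh-MBs and control eyes it was 0.51 (95% interval 0.022 to 1.01, adjusted p = 0.0896), and between *RBS* lesions and Shh-MBs -0.26 (adjusted p = 0.302). Without Shh-MB 3 these 2 differences were 0.32 and -0.060. Under the 4 other scalings *RBS* lesions differed from Shh-MBs by -0.54 to -1.10 and passed in each, with *Hhip* lower in *RBS* lesions. The difference to control eyes in *RBS* lesions was 0.16 without control eye 4. *Hhip* passed as higher in Shh-MBs than in control eyes with median centring (1.18), quantile normalization (1.01) and scaling to a total that left out the 3 most abundant genes (0.82).

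*Gas1* RNA was highest in control eyes. Control eyes had 1960.0, 2108, 1760.4 and 2364 (2048 ± 254, SD, n = 4), *RBS* lesions 995, 1185, 1268, 844 and 1011 (1061 ± 168, SD, n = 5) and Shh-MBs 621, 814 and 914 (783 ± 149, SD, n = 3). Every control eye was above every lesion of either type, and the 2 lesion types overlapped. *Gas1* fell in *RBS* lesions by 0.95 on the log2 scale (standard error 0.141, adjusted p = 0.00047, limma), a 1.94-fold lower level. In Shh-MBs it fell by 1.40 (standard error 0.171, adjusted p = 0.000709), a 2.63-fold lower level, but by 0.73 with median centring (adjusted p = 0.0274). The difference of 0.44 between *RBS* lesions and Shh-MBs missed the threshold (95% interval 0.029 to 0.85, adjusted p = 0.0613). It passed without *RBS* 4 (0.52, adjusted p = 0.034, limma) or without Shh-MB 3 (0.56, adjusted p = 0.0438), and its sign turned with median centring (-0.40, adjusted p = 0.158).

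The summed signal of 7 mesenchyme markers, which include fibrillar collagens and platelet-derived growth factor receptors, was 24215 to 54847 in control eyes, 19378 to 35358 in *RBS* lesions and, in Shh-MBs, 1444 to 2151. Against control eyes 1 of the 7 was higher and 2 lower in *RBS* lesions, and 1 was higher and 5 lower in Shh-MBs. The one higher in Shh-MBs was the receptor gene *Pdgfra*, with means of 349 in control eyes and 982 in Shh-MBs (log2 difference 1.53, adjusted p = 0.00505, limma). The 3 endothelium markers on the panel summed to 1789 to 2259 in control eyes, 695 to 988 in *RBS* lesions and, in Shh-MBs, 129 to 235. Against control eyes 1 of 3 passed as lower in *RBS* lesions and 2 of 3 in Shh-MBs. The 1 lower in *RBS* lesions was *Kdr*, which made up most of the sum (means 1864 in control eyes and 664 in *RBS* lesions). *Flt1* and *Angpt2* did not pass there, with log2 differences of 0.12 and 0.22. Over all genes 33.0% were higher and 18.2% lower in *RBS* lesions, and 9.61% and 31.4% in Shh-MBs, so the *RBS* counts of both lists are not far from these shares. No defining marker of either list was at the lowest value in all samples of a group. The part of these cells in the *Gas1* levels was not tested.

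*Lrp2* set *RBS* lesions apart from both other groups. Its signal was 31.0, 38.9, 28.0 and 27.2 in control eyes (31.3 ± 5.35, SD, n = 4) and 243, 194, 179, 206 and 193 in *RBS* lesions (203 ± 24.5, SD, n = 5). In Shh-MBs it was 4.74, 1.00 and 4.03, where 1.00 is the lowest value of that sample and the others rest on a few counts. No 2 groups overlapped, and the order was Shh-MBs, control eyes, *RBS* lesions. The rise in *RBS* lesions over control eyes was 2.67 on the log2 scale (standard error 0.133, adjusted p = 2.53e-06, limma), a 6.35-fold higher level and the 7th largest of the 770 genes. *Lrp2* was lower in Shh-MBs than in control eyes by -3.05 with a pseudocount of 1, -2.15 with a pseudocount of 5 and -0.63 with values under 20 set to 20. Each of these passed the threshold, but no fold is given for a group this close to the lowest value. *RBS* lesions differed from Shh-MBs, with the same 3 settings, by 5.71, 4.68 and 3.34 (adjusted p = 4.23e-06 with the pseudocount of 1).

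The 6 surface epithelium markers summed to 257 to 424 in control eyes, 496 to 826 in *RBS* lesions and, in Shh-MBs, 49.4 to 137. Against control eyes 3 of 6 passed as higher in *RBS* lesions, and 0 were higher and 4 lower in Shh-MBs. The largest part of the sum in eyes was *Calml3* (means 189 in control eyes and 358 in *RBS* lesions), whose values overlapped between these groups. Only *Itga2* (27.6 and 156) showed no overlap there, and *Sfn* was near the lowest value. In each Shh-MB, *Itga2* and *Calml3* were at the lowest value. The 7 neuron markers, which include glutamate receptor and calcium channel genes, summed to 965 to 1070 in control eyes, 2829 to 3737 in *RBS* lesions and, in Shh-MBs, 1124 to 1608, and 6 of 7 passed as higher in *RBS* lesions against control eyes. In Shh-MBs against control eyes 5 of these 7 were higher and 1 lower. The 5 blood and immune markers summed to 207 to 219 in control eyes, 319 to 412 in *RBS* lesions and, in Shh-MBs, 177 to 365. Of these, 4 of 5 passed as higher in *RBS* lesions and 1 of 5 in Shh-MBs, each against control eyes. Among them *Il7r* (means 1.09 in control eyes and 4.53 in *RBS* lesions) and *Cd14* (2.95 and 12.6) rest on few counts. The 1 in Shh-MBs was *Cd14* (mean 9.47). *Csf1r* and *Kit* had means of 78.9 and 124 in control eyes and 167 and 174 in *RBS* lesions. Of all genes, 33.0% were called higher in *RBS* lesions, and in Shh-MBs 9.61% were higher and 31.4% lower. The part of these cell types in *Lrp2* or *Ptch1* was not tested.

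The sequences just upstream of the start sites of the 2 genes that rose in *RBS* lesions are shown because their RNA moved together there. RefSeq windows (GRCm38.p6) were matched for 6 of the 7 genes, all but *Gli1*. Each run is the 250 bases before the start site, 5′ to 3′ on the strand of the gene, with CG dinucleotides in capitals. The window of *Ptch1* lies at chr13:63565736-63565985 and that of *Lrp2* at chr2:69586030-69586279, both on the minus strand.
Ptch1: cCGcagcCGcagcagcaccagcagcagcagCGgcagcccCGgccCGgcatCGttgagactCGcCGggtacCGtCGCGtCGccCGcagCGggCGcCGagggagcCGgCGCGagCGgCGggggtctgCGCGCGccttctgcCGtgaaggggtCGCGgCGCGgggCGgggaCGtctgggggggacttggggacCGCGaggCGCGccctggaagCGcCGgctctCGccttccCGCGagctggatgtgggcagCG
Lrp2: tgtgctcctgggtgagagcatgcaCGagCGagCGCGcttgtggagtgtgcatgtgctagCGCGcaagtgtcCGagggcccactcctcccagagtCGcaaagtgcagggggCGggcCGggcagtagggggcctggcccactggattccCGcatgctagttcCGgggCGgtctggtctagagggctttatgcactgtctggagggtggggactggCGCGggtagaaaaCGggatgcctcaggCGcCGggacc
The *Ptch1* window holds 41 CG dinucleotides and the *Lrp2* window 18, where the median of 32851 such windows is 6. Those of *Gli3*, *Hhip*, *Smo* and *Gas1* hold 34, 28, 15 and 10. The Gli binding motif GACCACCCA, searched on both strands, occurs in 0.225% of all windows and in 0 of these 6, which says only that these letters are not in these windows.

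*Smo*, whose active form SmoM2 both lesion types carry, did not pass in any of the 3 comparisons with the deposited scaling. Control eyes had 154, 147, 148 and 178 (157 ± 14.5, SD, n = 4), *RBS* lesions 178, 193, 182, 156 and 179 (177 ± 13.6, SD, n = 5) and Shh-MBs 146, 142 and 186 (158 ± 24.1, SD, n = 3). All 3 groups overlapped. Log2 differences were 0.18 between *RBS* lesions and control eyes (95% interval -0.042 to 0.39, adjusted p = 0.164, limma), 0.0015 between Shh-MBs and control eyes (-0.32 to 0.33, adjusted p = 0.994) and 0.17 between *RBS* lesions and Shh-MBs (-0.12 to 0.47, adjusted p = 0.258). The sign of the first and of the last depends on the scaling. *Smo* passed with median centring and quantile normalization as higher in Shh-MBs than in control eyes (0.67 and 0.46) and as lower in *RBS* lesions than in Shh-MBs (-0.67 and -0.46). Which part of the *Smo* transcript the probe binds is not given in the sources used here, so whether the probe also counts SmoM2 transcripts cannot be told and *Smo* is no check of recombination.

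**Figure D2:**
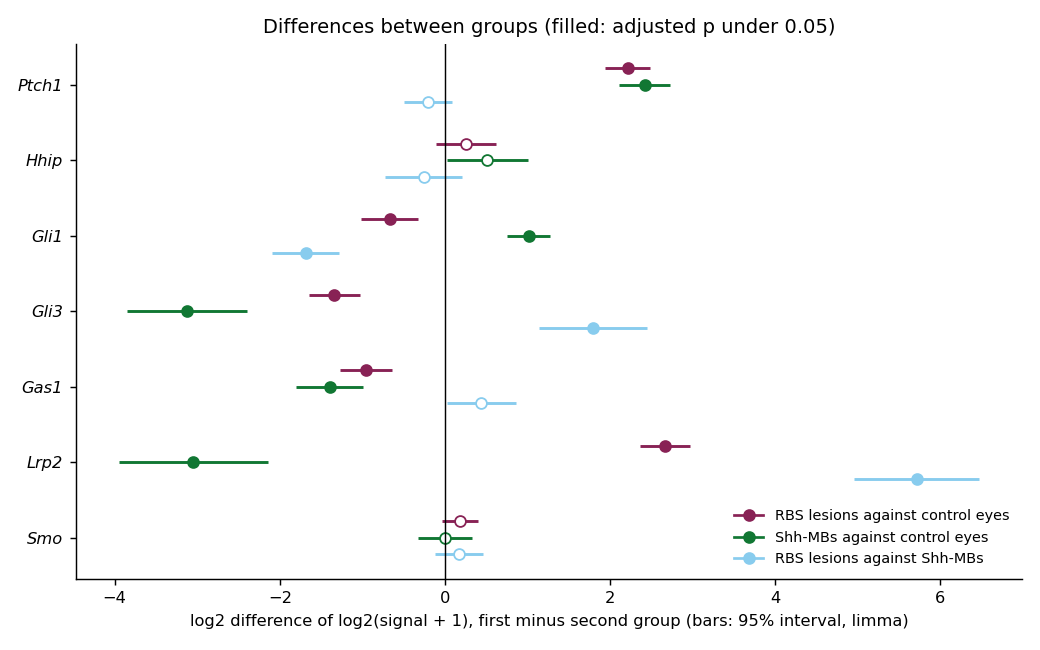
Difference of log2(signal + 1) for each of the 7 genes in 3 comparisons, as the mean of the first group minus that of the second, with 95% intervals from limma; filled points have an adjusted p under 0.05. *Gli1* and *Lrp2* point in opposite directions in the 2 lesion types against control eyes, whereas *Ptch1*, *Gli3* and *Gas1* point the same way.

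*Gli1*, which encodes an activator and is itself induced by the pathway, went against *Ptch1* in *RBS* lesions. Its signal was 118, 118, 99.1 and 106 in control eyes (110 ± 9.24, SD, n = 4), 76.0, 47.9, 72.7, 79.6 and 72.7 in *RBS* lesions (69.8 ± 12.6, SD, n = 5) and 217, 212 and 241 in Shh-MBs (223 ± 15.1, SD, n = 3). No 2 groups overlapped, with *RBS* lesions lowest and Shh-MBs highest, and *RBS* 2 lay apart below the other lesions. *Gli1* fell in *RBS* lesions by 0.67 on the log2 scale (standard error 0.154, adjusted p = 0.00559, limma), a 1.59-fold lower level, and by 0.54 without *RBS* 2 (adjusted p = 0.00235). In Shh-MBs it rose by 1.01 over control eyes (standard error 0.108, adjusted p = 0.000374), a 2.02-fold higher level. The direct difference between *RBS* lesions and Shh-MBs was -1.68 (standard error 0.175, adjusted p = 7.61e-05), a 3.22-fold lower level in *RBS* lesions. Each of these 3 calls held under the 4 other scalings, where the difference of *RBS* lesions to control eyes was -0.73 to -0.90, that of Shh-MBs to control eyes 1.07 to 1.68 and that of *RBS* lesions to Shh-MBs -1.96 to -2.53.

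*Gli3* RNA, which encodes the main repressor of the family, was stepwise lower from control eyes to *RBS* lesions to Shh-MBs. Control eyes had 390.1, 352, 328 and 294 (341 ± 40.6, SD, n = 4), *RBS* lesions 151, 147, 141, 131 and 102 (135 ± 19.8, SD, n = 5) and Shh-MBs 63.0, 24.9 and 34.6 (40.8 ± 19.8, SD, n = 3). No 2 groups overlapped. Relative to the mean the spread was widest in Shh-MBs, where Shh-MB 1 was 2.53 times Shh-MB 2. *Gli3* fell in *RBS* lesions by 1.34 on the log2 scale against control eyes (standard error 0.139, adjusted p = 7.28e-05, limma), a 2.53-fold lower level. In Shh-MBs it fell by 3.13 (standard error 0.303, adjusted p = 0.000247), an 8.74-fold lower level, but by 2.46 with median centring and 2.42 with quantile normalization. Between *RBS* lesions and Shh-MBs the difference was 1.79 (standard error 0.283, adjusted p = 0.000738), and it remained between 0.80 and 1.51 under the 4 other scalings.

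Because *Ptch1*, *Hhip* and *Gli1* are read as outputs of one pathway, their ratios were formed within each sample, where the scaling of the sample cancels but for the 1 added before taking logs. Probes differ in efficiency, so only the change of a ratio between groups is read and not its level. All 6 ratios were compared in 3 comparisons with two-sided exact permutation tests, adjusted over the 18 tests. The smallest exact p that the group sizes allow is 0.00794 for *RBS* lesions against control eyes, 0.0179 for *RBS* lesions against Shh-MBs and 0.0286 for Shh-MBs against control eyes. Where both genes of a ratio separated the groups without overlap and in opposite directions, this p was fixed in advance and adds no support. This holds for *Ptch1* to *Gas1* against control eyes in both lesion types and for *Ptch1* to *Gli1* in *RBS* lesions against control eyes. It also holds for *Gli3* to *Gli1* in both comparisons with Shh-MBs. The genes were chosen with earlier results of these data known, which the adjustment does not cover.

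The ratio of *Ptch1* to *Gli1* separated all 3 groups. It was 1.87, 1.64, 1.91 and 1.55 in control eyes, 4.41, 4.64 and 4.74 in Shh-MBs and 10.8, 18.4, 10.6, 13.1 and 13.0 in *RBS* lesions. The 3 Shh-MBs lay close together, and *RBS* 2, the lesion with the lowest *Gli1*, had the highest ratio. The log2 ratio in *RBS* lesions exceeded that in control eyes by 2.88 (exact permutation p = 0.00794, adjusted p = 0.0286) and that in Shh-MBs by 1.48 (exact permutation p = 0.0179, adjusted p = 0.0396). In Shh-MBs it was higher than in control eyes by 1.40 (exact permutation p = 0.0286, adjusted p = 0.0396). The 2 target genes therefore rose together in Shh-MBs by unequal amounts, and parted in *RBS* lesions.

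*Hhip* to *Gli1* was 0.98 to 1.31 in control eyes, 1.69 to 2.69 in *RBS* lesions and, in Shh-MBs, 0.709 to 1.00. It exceeded control eyes in *RBS* lesions by 0.93 on the log2 scale (exact permutation adjusted p = 0.0286) and Shh-MBs by 1.43 (exact permutation adjusted p = 0.0396), while Shh-MBs and control eyes overlapped (-0.50, exact permutation adjusted p = 0.0945). *Ptch1* to *Hhip* overlapped between the 2 lesion types, with 5.14 to 6.85 in *RBS* lesions, 4.74 to 6.54 in Shh-MBs and 1.43 to 1.58 in control eyes. The 2 lesion types differed by 0.051 on the log2 scale (exact permutation adjusted p = 0.75), and each was above control eyes, by 1.96 (exact permutation adjusted p = 0.0286) and 1.90 (exact permutation adjusted p = 0.0396).

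*Ptch1* to *Gas1* was 0.0696 to 0.112 in control eyes, 0.61 to 1.24 in *RBS* lesions and, in Shh-MBs, 1.21 to 1.54. It exceeded control eyes by 3.17 (*RBS* lesions) and 3.81 (Shh-MBs) on the log2 scale (exact permutation adjusted p = 0.0286 and 0.0396), and the 2 lesion types overlapped (-0.65, exact permutation adjusted p = 0.0857). The log2 ratio of *Smo* to *Ptch1* differed from control eyes by -2.03 (*RBS* lesions) and -2.42 (Shh-MBs), with no overlap (exact permutation adjusted p = 0.0286 and 0.0396). *Gli3* to *Gli1* was 2.76 to 3.31 in control eyes and 0.117 to 0.29 in Shh-MBs, a log2 difference of -4.14 (exact permutation adjusted p = 0.0396). *RBS* lesions exceeded Shh-MBs by 3.47 on the log2 scale without overlap (exact permutation adjusted p = 0.0396). In *RBS* lesions it was 1.99, 3.08, 1.95, 1.65 and 1.40, with *RBS* 2 inside the range of control eyes. That log2 difference to control eyes was -0.67 (exact permutation p = 0.0317, adjusted p = 0.0408), and the call was lost in 8 of the 9 analyses that left out 1 eye, with adjusted p up to 0.113.

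**Figure D3:**
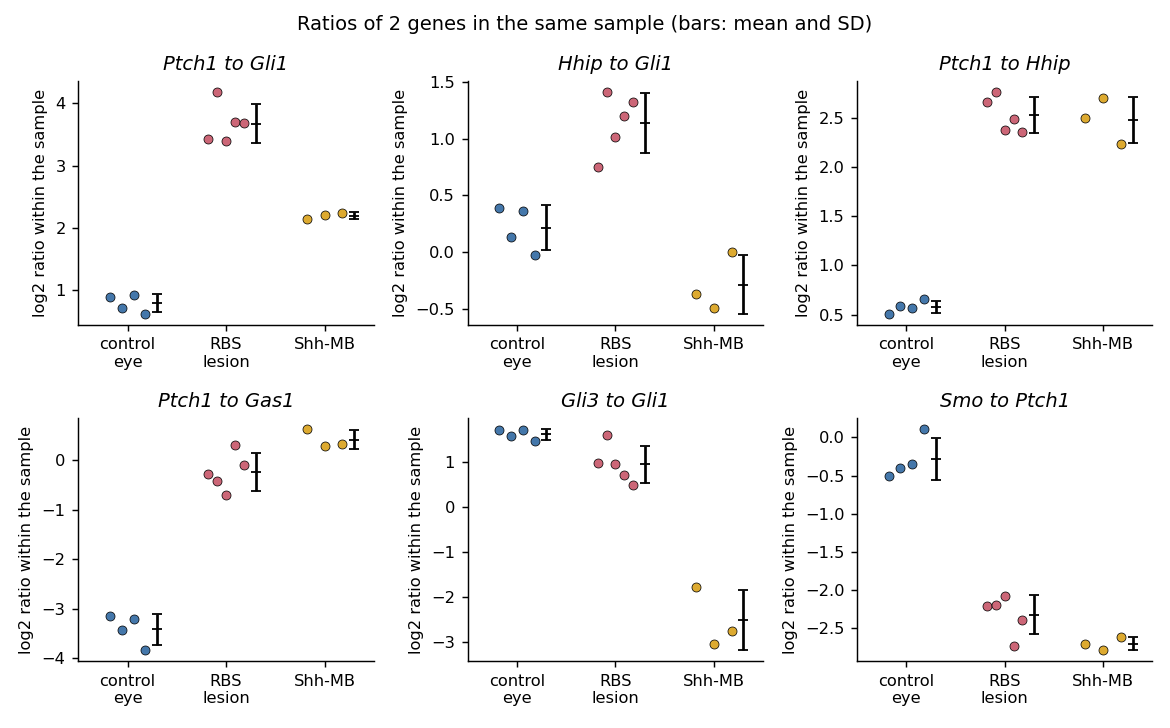
Log2 of 6 ratios of 2 genes within a sample, with 1 point for each of 4 control eyes, 5 *RBS* lesions and 3 Shh-MBs and bars for the mean and SD of each group. *Ptch1* to *Gli1* separates all 3 groups, whereas *Ptch1* to *Hhip* separates only the control eyes from both lesion types.

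The scaling of the samples shifted the median of all genes, most in the 2 comparisons with Shh-MBs. The median log2 difference of all genes between *RBS* lesions and Shh-MBs was 0.53 as deposited, 0.25 with housekeeping centring, 0.19 with a total that left out the 3 most abundant genes, -0.10 with quantile normalization and -0.32 with median centring. Between Shh-MBs and control eyes it ran from -0.22 as deposited to 0.44 with median centring, and between *RBS* lesions and control eyes from -0.05 with housekeeping centring to 0.17 as deposited. Read against these shifts, the differences of *Ptch1*, *Lrp2*, *Gli1*, *Gli3* and *Gas1* to control eyes kept their direction and passed under every scaling in both lesion types. Against Shh-MBs this held for *Lrp2*, *Gli1* and *Gli3*.

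**Figure D4:**
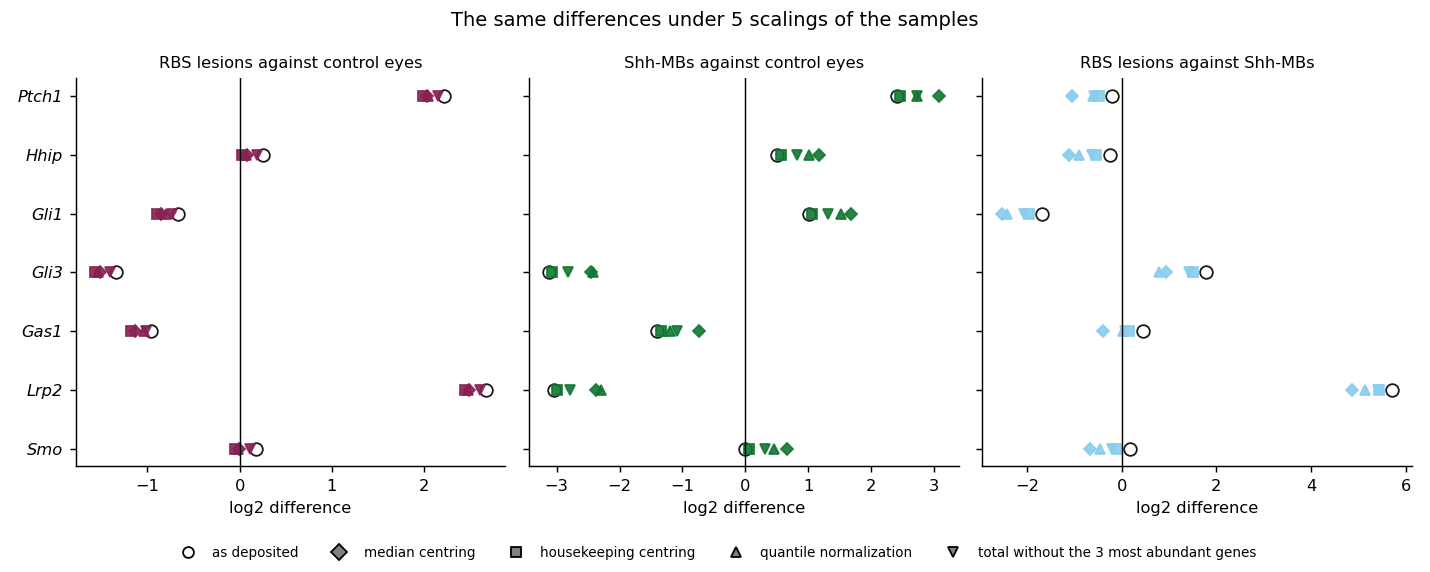
Log2 difference of each of the 7 genes in 3 comparisons with the samples scaled as deposited (open circles) and in 4 other ways (filled marks). Marks of *Smo* lie on both sides of 0 in the comparisons of *RBS* lesions with control eyes and with Shh-MBs, and those of *Gas1* in the comparison with Shh-MBs.

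Further pathway genes came from a list of 34, of which 13 were on the panel. The genes of all 3 Hedgehog ligands, *Boc*, *Cdon* and *Gli2* were not among the 13. In *RBS* lesions 9 of 13 were higher than in control eyes, 0 were lower and 4 did not pass, with a median log2 difference of 0.43 beside 0.17 over all genes, of which 33.0% were higher and 18.2% lower. With the 4 other scalings 6 to 8 were higher, 0 or 1 lower, and the median was 0.20 to 0.41. Of these 13 genes, 6 encode protein kinase A subunits or the related kinase Prkx; protein kinase A phosphorylates Gli proteins and promotes their processing to repressors. The regulatory subunit gene *Prkar1b* went from 239 ± 29.2 (SD, n = 4) to 743 ± 99.2 (SD, n = 5), a log2 difference of 1.63 (adjusted p = 1.63e-05, limma). The catalytic subunit gene *Prkacb* rose by 1.31 and the regulatory subunit genes *Prkar2b* and *Prkar2a* by 1.14 and 0.78. The catalytic subunit gene *Prkaca* did not pass (0.23, adjusted p = 0.0924), and *Prkx* (0.31, adjusted p = 0.0231) lost its call under the 4 other scalings (0.087 to 0.25). *Rbx1*, of cullin ubiquitin ligases, and *Gsk3b*, a kinase that also acts on Gli proteins and beta-catenin, rose by 0.64 and 0.56. *Sufu*, which encodes the cytoplasmic inhibitor of Gli proteins, did not pass there (351 ± 24.8 and 357 ± 10.4, log2 difference -0.02, adjusted p = 0.821), but was called lower with quantile normalization (-0.26, adjusted p = 0.0119). The summed neuron markers were 965 to 1070 in control eyes and 2829 to 3737 in these lesions, with 6 of 7 called higher, and their part in the pathway genes was not tested.

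In Shh-MBs against control eyes 3 of the 13 genes were higher, 4 lower and 6 did not pass, with a median of -0.02 beside -0.22 over all genes, of which 9.61% were higher and 31.4% lower. *Zic2*, a zinc finger factor of granule cell progenitors, was higher by 1.87 on the log2 scale, *Sufu* by 1.14 and the protein kinase gene *Prkx* by 0.63. *Prkar1b* was lower by -1.87 (adjusted p = 0.0348, limma), with Shh-MB values from 36.3 to 182. *Cul1* and *Prkar2b* were lower by -0.59 and -0.41. Calls of *Prkar1b*, *Cul1*, *Prkar2b* and *Gsk3b* were lost under 2 or more of the other scalings, and the counts moved to between 4 and 7 higher and 0 to 3 lower. Over all 770 genes the counts moved too, to 311 higher and 139 lower with median centring and 223 and 149 with quantile normalization.

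Compared directly, *RBS* lesions exceeded Shh-MBs in 9 of the 13 genes and were lower in 3, with a median of 0.59 beside 0.53 over all genes, of which 48.1% were higher and 12.7% lower. *Prkar1b* was higher by 3.50 on the log2 scale, *Prkar2b* by 1.56, *Prkacb* by 1.25 and *Prkar2a* by 1.05, whereas *Zic2* was lower by -1.74 and *Sufu* by -1.16 (351 ± 24.8 against 791 ± 118, SD, n = 5 and 3). Median centring turned the split to 2 higher and 6 lower, where 181 of all 770 genes were higher and 319 lower. *Prkar1b*, *Prkar2b*, *Zic2* and *Sufu* passed in the same direction under every scaling, and *Prkacb* and *Prkar2a* under all but median centring.

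Of 16 listed Hedgehog target genes other than the 7, 9 were on the panel, and in *RBS* lesions 2 were higher, 5 lower and 2 did not pass, with a median log2 difference of -0.69 beside 0.17 over all genes, of which 33.0% were higher and 18.2% lower. With the 4 other scalings 2 were higher and 5 or 6 lower. The cell cycle gene *Ccnd1* was 13870.3 ± 1834 (SD, n = 4) in control eyes and 1856 ± 374 (SD, n = 5) in *RBS* lesions, a log2 difference of -2.91 (adjusted p = 3.48e-06, limma). *Fgf15*, a growth factor gene of retinal progenitors, was 968 ± 129 and 133 ± 33.0, a log2 difference of -2.89. *Mycn* was lower by -0.87 and *Hes1* by -0.73. *Fst*, which encodes follistatin, was higher by 1.31 and the survival gene *Bcl2* by 0.68. *Sfrp1*, a secreted Wnt antagonist gene, was also called lower (-0.69), but its groups overlapped.

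In Shh-MBs 3 of these 9 target genes were higher than in control eyes, 5 were lower and 1 did not pass, with a median of -2.08 beside -0.22 over all genes, of which 9.61% were higher and 31.4% lower. *Ccnd2* rose from 743 ± 196 (SD, n = 4) to 3001 ± 360 (SD, n = 3), a log2 difference of 2.04, and *Mycn*, a driver of granule cell progenitor division, from 1282 ± 155 to 3617 ± 459. *Sfrp1* was higher by 1.68. *Ccnd1* was lower by -2.65, *Bmp4* by -3.57 and *Hes1* by -2.08, the last not called with quantile normalization (adjusted p = 0.113). *Fgf15* and *Fst* were near the lowest value in Shh-MBs (1 to 4.87 and 1 to 2.51), so no fold is given for them. Against Shh-MBs, *RBS* lesions were higher in 5 and lower in 3 of the 9, with a median of 1.22 beside 0.53 over all genes, of which 48.1% were higher and 12.7% lower, so that the higher share is near that of all genes. With median centring 3 were higher and 4 lower (median 0.38), and with quantile normalization 3 and 3 (median -0.03). Over all 770 genes, 181 were higher and 319 lower with median centring, and 203 and 236 with quantile normalization. *Sfrp1*, *Mycn* and *Ccnd2* were lower by -2.37, -2.36 and -1.68, and *Bmp4* was higher by 3.27.

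**Figure D5:**
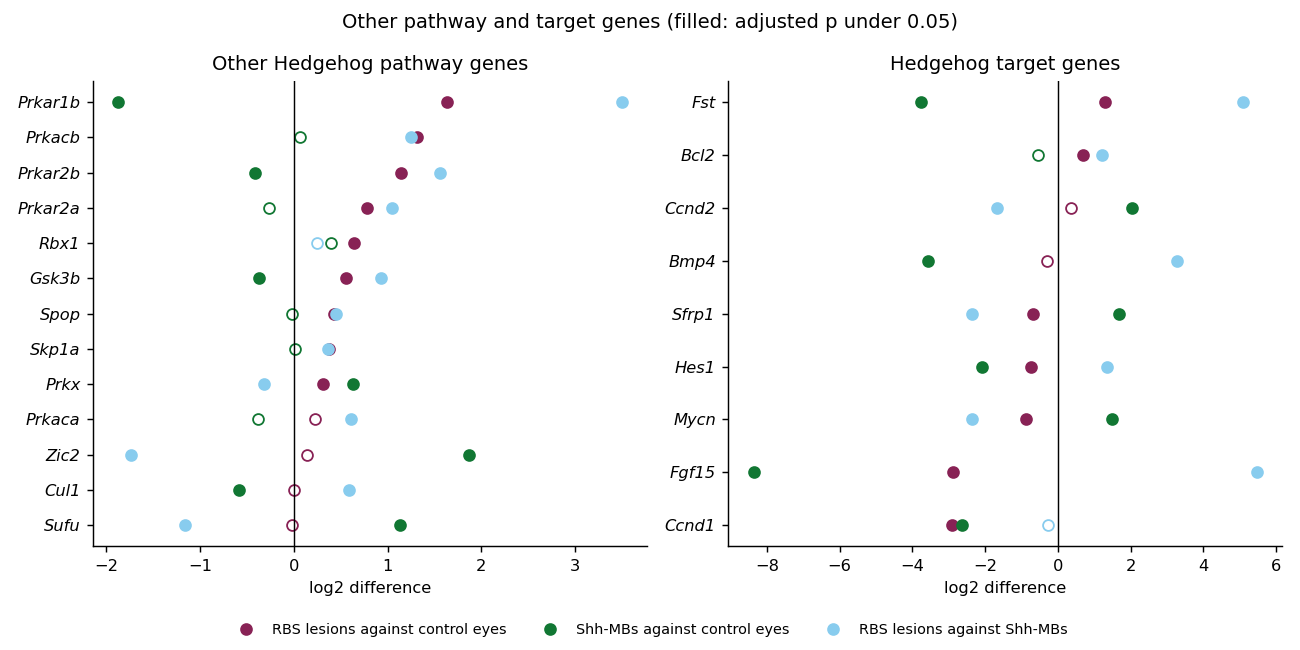
Log2 differences of 13 other Hedgehog pathway genes (left) and 9 Hedgehog target genes (right) in the same 3 comparisons; filled points have an adjusted p under 0.05. In *RBS* lesions against control eyes 9 pathway genes are higher and 0 lower, and 5 target genes are lower and 2 higher. Over all genes of the panel 33.0% were higher and 18.2% lower in this comparison.

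Genes with the most similar profile over the 12 samples were taken as those with the smallest root mean square difference of gene-centred log2 values, among 568 genes with a mean of at least log2 of 20. For *Ptch1* they were *Plcb1* (0.34), *Bcl2a1a* (0.45) and *Mad2l2* (0.52), where the median gene was at 1.21. *Plcb1*, a phospholipase C gene, had a mean of 59.8 in control eyes, 317 in *RBS* lesions and 243 in Shh-MBs. For *Lrp2* they were *Itga2* (0.51), *Ptpn5* (0.55) and *Id4* (0.62), against a median of 2.07. *Itga2*, an integrin gene, had means of 27.6, 156 and 1.04 in the same order, and the mean of *Id4* was 719, 7553 and 301.

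*Gli1* was nearest to *Fancf* (0.26), *Pim1* (0.28) and *Rfc4* (0.30), with a median of 0.99. *Fancf* and *Rfc4*, which act in DNA repair and replication, had their lowest group mean in *RBS* lesions (176 and 91.8) and their highest in Shh-MBs (403 and 289). *Gli3* was nearest to *Rxrg* (0.32), *Hes5* (0.34) and *Dll4* (0.34), with a median of 1.22, and the Notch effector gene *Hes5* had means of 3889, 2089 and 545 in control eyes, *RBS* lesions and Shh-MBs. *Gas1* was nearest to *Eif4ebp1* (0.27), *Dusp6* (0.29) and *Tgfb2* (0.31). *Smo* and *Hhip* varied little over the samples, and their nearest genes were *Akt1* (0.13) and *Polr2h* (0.24). These distances describe 12 samples in 3 groups and carry no test.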

How the data were processed

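Fresh frozen tissue of 12 mice (5 *RBS* lesions, 4 control eyes, 3 Shh-MBs) was measured on the nCounter SPRINT Profiler, 1 eye or tumor for each animal. The authors normalized the counts with nSolver 4.0.70 and nCounter Advanced Analysis 2.0.115, and the deposited values are a background-subtracted, normalized signal on the linear scale, although a log2 step is described. The background setting and the reference genes are not given in the sources used here; the geometric mean of 20 panel genes was 638 in every sample. Scaling fixes this mean, so a change shared by all genes cannot be seen, and subtraction makes values near the lowest one uncertain.

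Groups were compared in pairs with limma 3.58.1 in R 4.3.3 on log2(signal + 1) of all 770 genes (two-sided, Benjamini-Hochberg, threshold 0.05, no filter). Within-sample log2 ratios were compared by exact permutation in Python 3.11.15. The fit was checked on simulated data. Alternatives were the methods' Welch test with step-down Bonferroni (without its 100 permutations) or Benjamini-Hochberg adjustment, limma with trend and robust settings, all 12 samples, median or housekeeping centring (13 genes), quantile normalization, genes with a mean under log2 of 20 left out, a pseudocount of 5, a replicate block and each sample left out. Setting values under 20 to 20 and scaling to a total that left out the 3 most abundant genes were chosen after seeing the data. The 7 genes and the lists were chosen with earlier results of these data known. Named genes were the 7, up to 6 per list and comparison past the threshold without overlap, and the 3 nearest in profile to each of the 7; *Sufu*, *Sfrp1*, *Prkaca* and *Prkx* in *RBS* lesions against control eyes and *Gsk3b*, *Mycn* and *Sfrp1* in Shh-MBs against control eyes were named beside it after their values were seen. Single cell type markers were also named after their values were seen. Embryo sex is not given in the labels.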

Additional observations from a re-analysis of the deposited data

Results flagged for a closer look

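*Gli1* moved in opposite directions in the 2 lesion types. Every *RBS* lesion was below and every Shh-MB above all control eyes, and the direct log2 difference between *RBS* lesions and Shh-MBs was -1.68 (adjusted p = 7.61e-05, limma). Both lesion types were set against the same 4 control eyes.

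*Lrp2* moved the other way round, with every *RBS* lesion above and every Shh-MB below all control eyes. The direct log2 difference was 5.71 (adjusted p = 4.23e-06, limma), a value that depends on the pseudocount because Shh-MBs were near the lowest value.

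*Gli1* in *RBS* 2, at 47.9, was far below the other lesions, which lay between 72.7 and 79.6. The gap took 0.820 of the range of the 5 log2 values. Of 14 groups of 4 or 5 samples examined in this way it was the only one, and since chance marks about 1 in 20 such groups, 1 of 14 is about what chance gives.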

How the results depend on the processing

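The directions of *Ptch1*, *Lrp2*, *Gli1*, *Gli3* and *Gas1* against control eyes held under each alternative that tested them, and their calls under all of these but the Welch test. With low genes left out, *Lrp2* was not tested in Shh-MBs against control eyes, where its mean is under the minimum. With its Bonferroni adjustment the Welch test called 1 of the 7 genes lower (3 with limma) in *RBS* lesions against control eyes, 0 lower (3) in Shh-MBs against control eyes and 0 higher (2) in *RBS* lesions against Shh-MBs, where Benjamini-Hochberg gave 1. Over all genes it called 41 higher (254 with limma) and 31 lower (140) for *RBS* lesions and control eyes, 56 (370) and 24 (98) for *RBS* lesions and Shh-MBs, and 7 (74) and 29 (242) in Shh-MBs against control eyes.

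Scaling also changed the counts. With housekeeping centring, 168 genes were higher for *RBS* lesions and control eyes. In the comparison with Shh-MBs 181 were higher with median centring and 203 with quantile normalization, and lower genes were 153 with housekeeping centring, 319 with median centring, 236 with quantile normalization and 164 with the total that leaves out the 3 most abundant genes, and of the 7 genes these settings called 3, 4, 4 and 3 lower. Shh-MBs against control eyes had 311, 223 and 160 higher genes with median centring, quantile normalization and this total, 4 of the 7 in each of the first 2, and 139 and 149 lower genes in the first 2. *Smo* turned to -0.048, -0.0032 and -0.019 against control eyes and to -0.10, -0.67 and -0.46 against Shh-MBs with housekeeping centring, median centring and quantile normalization, and to -0.20 against Shh-MBs with the total. *Gas1* against Shh-MBs turned to -0.40 with median centring. The cause was not tested.

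Leaving out each sample in turn gave -0.12 to 0.072 for *Smo* in Shh-MBs against control eyes and -0.070 to 0.16 for *Ptch1* to *Hhip* in *RBS* lesions against Shh-MBs. *Gli3* to *Gli1* against control eyes was -0.83 to -0.55, *Ptch1* to *Gas1* against Shh-MBs -0.78 to -0.53 and *Smo* to *Ptch1* against Shh-MBs 0.32 to 0.49, the last 2 passing only without *RBS* 4 (exact permutation adjusted p = 0.0343). Without a Shh-MB, and for Shh-MBs against control eyes without any 1 sample, too few splits were left to test a ratio.

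Replicate numbers are shared between groups but mark separate animals, and deviations of same-numbered samples correlated between -0.15 and 0.19. With a replicate block *Gas1* passed between *RBS* lesions and Shh-MBs (0.56, adjusted p = 0.0253, limma), and no other call of the 7 genes changed. Of samples with a shared number, 4 of 8, 1 of 6 and 0 of 6 correlated best with their own number in the 3 comparisons. Genes called with the block were 192 higher and 109 lower for *RBS* lesions and control eyes, 323 and 84 for *RBS* lesions and Shh-MBs, and 51 and 179 in Shh-MBs against control eyes.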
